A study of Homo sapiens with 24 samples.

Results

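Folliculin, its FNIP partners, the Rag GTPases they act on and the transcription factors downstream were followed as a set of 9 genes after knockdown of PRKCQ, which encodes protein kinase C theta, in cutaneous T cell lymphoma cells. The set holds FNIP1, FNIP2, FLCN, RRAGA, RRAGC, RRAGD, LAMTOR1, TFEB and TFE3. Each symbol matched 1 row in each of the authors' comparison tables, which list 13025 genes for DMSO and 58780 for TPA. FNIP2 was included because of its fall in DMSO, so its DMSO values are given as a description, and its values under TPA come from libraries that the choice did not use.

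The study sequenced RNA of MyLa cells, derived from mycosis fungoides, and of HuT 78 cells, derived from Sézary syndrome, both labelled as lymphoblasts. Each line carried a non-targeting control hairpin (NTC) or a hairpin against PRKCQ (shPRKCQ) and was treated for 24 h with the vehicle DMSO or with 10 ng/ml TPA, a phorbol ester and direct activator of protein kinase C. That gives 8 groups of 3 libraries. Before that, knockdown cells had been kept for 72 h or longer with doxycycline at 1 µg/ml, per the labels' protocols, which leave unsaid whether NTC cells received it too and whether the lines were clonal; without it in NTC cells, drug and hairpin effects cannot be told apart. Both lines enter each table together, as 6 libraries with the shPRKCQ hairpin and 6 with NTC. Values per library, the level of each gene, the depth and each line by itself are not analysed here, so the T cell identity of the lines could not be checked from marker levels. PRKCQ was at 23.1% of the NTC level in DMSO and at 23.7% in TPA, computed from the authors' deposited tables.

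Folliculin is the tumour suppressor lost in Birt-Hogg-Dubé syndrome. With FNIP1 or FNIP2 it forms a complex on the lysosome that stimulates GTP hydrolysis by RagC and RagD, the partners of RagA and RagB in the Rag heterodimers that bring mTORC1 to the lysosome when amino acids are plentiful. RagC and RagD in this state also bring TFEB and TFE3 to mTORC1, whose phosphorylation keeps these factors in the cytoplasm. When folliculin or the FNIP proteins are missing, TFEB and TFE3 enter the nucleus and switch on lysosomal and autophagy genes, through a DNA element built around CACGTG. In T cells, TFEB and TFE3 are known to drive CD40 ligand, and loss of FNIP1 in mice blocks B cell development and the maturation of invariant NKT cells.

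The start regions of the FNIP paralogs are shown because these genes have the same biochemical role. A difference in their response to the knockdown is not shown here, and no cause is read from the sequences. RefSeq promoters (GRCh38.p14, from 250 bases before to 50 after a start) were matched for 7 of the 9 members. FNIP2 has a first start with its promoter at chr4:158768776-158769075 and a second with its promoter at chr4:158805589-158805888, both on the plus strand. FNIP1 has 1 start, with its promoter at chr5:131796968-131797267 on the minus strand. Capitals mark CACGTG, the core of the TFEB and TFE3 element, TGANTCA, the element of AP-1 that phorbol esters act through, and GTCATATGAC, the longest run that the FNIP1 region shares with the first FNIP2 region, picked out after the sequences were seen. All 3 motifs read the same on both strands, and no match overlaps another.
FNIP2, first start: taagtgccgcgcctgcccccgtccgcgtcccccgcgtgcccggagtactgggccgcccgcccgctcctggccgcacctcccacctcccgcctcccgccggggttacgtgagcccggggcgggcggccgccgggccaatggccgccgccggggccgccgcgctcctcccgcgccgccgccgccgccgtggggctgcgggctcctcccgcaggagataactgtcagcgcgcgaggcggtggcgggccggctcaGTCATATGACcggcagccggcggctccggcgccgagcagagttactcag
FNIP2, second start: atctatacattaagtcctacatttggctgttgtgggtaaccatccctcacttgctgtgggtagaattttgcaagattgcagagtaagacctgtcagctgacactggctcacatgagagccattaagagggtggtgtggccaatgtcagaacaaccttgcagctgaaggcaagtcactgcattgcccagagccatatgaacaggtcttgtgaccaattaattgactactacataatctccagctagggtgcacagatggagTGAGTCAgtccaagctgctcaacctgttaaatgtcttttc
FNIP1: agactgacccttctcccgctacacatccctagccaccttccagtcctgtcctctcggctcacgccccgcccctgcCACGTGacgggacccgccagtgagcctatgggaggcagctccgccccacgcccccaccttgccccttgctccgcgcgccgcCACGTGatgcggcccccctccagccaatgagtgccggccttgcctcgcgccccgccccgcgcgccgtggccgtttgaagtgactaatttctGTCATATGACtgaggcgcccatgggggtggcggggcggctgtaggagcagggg

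FNIP1 held CACGTG at 175 and 94 bases before its start, and neither start of FNIP2 held it within the 300 bases. The motif was present in 7.26% of all 35116 promoters and in 3 of the 10 promoters that the 7 matched members have. Besides that of FNIP1, these were the promoters of RRAGC, with 1 match 112 bases before its start, and LAMTOR1, with 1 match 165 bases before its start. Their 30-base surroundings, at chr1:38859867-38859896 for RRAGC and chr11:72103445-72103474 for LAMTOR1, both on the minus strand, are set side by side with the motif in capitals.
RRAGC: aggtgattccggCACGTGacggggcaccac
LAMTOR1: ctttccccgcatCACGTGcttgcgtgtacg
TGANTCA was present in 7.71% of all promoters and in 3 of the 10 member promoters, those of FNIP2 (second start), RRAGC and TFE3. The decamer GTCATATGAC stood in 6 of the 35116 promoters, 0.0171%. Both FNIP genes are among them by construction, because the decamer was picked as a run that they share. How many promoters would hold a random run of that length was not computed, so nothing is read from this share. The decamer begins 3 bases before the start of FNIP1 and at base 2 after the first start of FNIP2. These matches are a description of the letters, and binding was not measured.

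FNIP2 was the member with the lowest value in vehicle-treated cells, and FNIP1 was close to the control level. FNIP2 (ENSG00000052795.12, chromosome 4, 158769138 to 158908049, plus strand, GRCh38) had, by the authors' deposited table for DMSO, a log2 fold change of -0.35 (p = 5.2e-05, adjusted p = 0.0483). This is 78.3% of the NTC level. The standard error implied by the fold change and its p-value is 0.087, which gives an interval of 69.6% to 88.2% of the NTC level at 95%. In DMSO 1 of 9 members, FNIP2, passed at an adjusted p under 0.05, where 0.108% of all 13007 genes tested did; FNIP2 was chosen on this value, so nothing is read from that count. The call was lost with the adjustment made without 30 non-polyadenylated and histone genes (adjusted p = 0.0519). FNIP2 shares 0.367% of its transcript 31-mers with other genes; C4orf45 overlaps it on the other strand and has no fold change in either table. In bulk RNA, fewer cells of a type and less RNA per cell cannot be told apart.

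Among all genes in DMSO, FNIP2 combined a modest change with a small error. It had the highest p-value of the 14 called genes by the authors' deposited table, together with NOTCH1 and MROH6 at the same adjusted p. The next gene, HIPK1, was at an adjusted p of 0.0564 by the authors' deposited table. A more negative fold change was found for 405 genes, of which 9 were called, and their median implied standard error was 0.338. Only 4.85% of genes had a smaller implied standard error than FNIP2.

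With TPA, FNIP2 did not pass, and its value lay nearer to the control level. The log2 fold change was -0.15 by the authors' deposited table for TPA (p = 0.081, adjusted p = 1.00), which is 90.2% of the NTC level, with an implied interval of 80.3% to 101% at 95%. That interval holds the control level and also part of the range seen in DMSO. By p-value FNIP2 ranked 1190 of 19417 genes tested in TPA, and 14 of 13007 in DMSO. These ranks are over unlike sets of genes, and the DMSO rank rests on the value that chose FNIP2. No contrast is therefore read from them. TPA minus DMSO was 0.20 on the log2 scale, with an interval of -0.036 to 0.44. No p is given for that difference, because the DMSO value that enters it chose the gene. A value that chose its gene tends to be overstated, so the DMSO fall and this difference may both be too large.

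**Figure D1:**
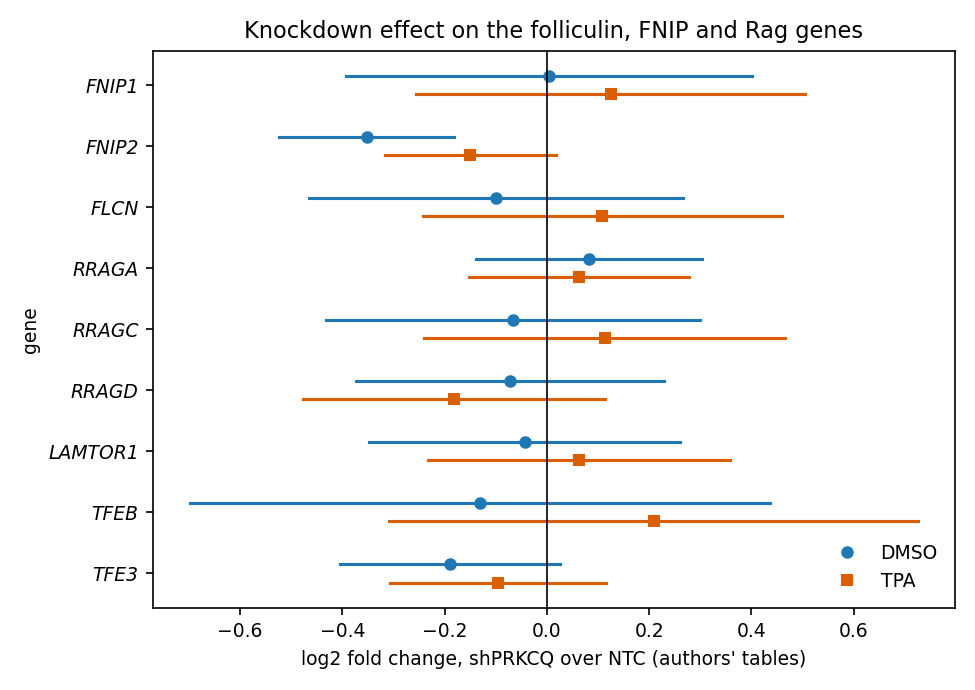
Log2 fold change of shPRKCQ over NTC for each member (x axis) in DMSO (circles) and TPA (squares), from the authors' deposited tables; lines are intervals at 95% computed from the fold change and p-value. In DMSO the interval of FNIP2 ends at -0.18 and does not reach 0; the intervals of all other members, and of FNIP2 in TPA, include 0.

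FNIP1, the paralog that shares the folliculin partner role, did not pass in either treatment. FNIP1 (ENSG00000217128.11, chromosome 5, 131641714 to 131797063, minus strand) was at 0.0043 with DMSO and 0.12 with TPA on the log2 scale by the authors' deposited tables (unadjusted p = 0.983 and 0.520). These are 100% and 109% of the NTC level. The implied interval in DMSO was wide, from 76.2% to 132% of the NTC level, and so includes the 78.3% of FNIP2. With the error of FNIP1, a fall to 56.7% of the NTC level would have been needed for a call in DMSO. A difference in response between the FNIP genes is therefore not shown, and it was not tested, since the tables do not give how the genes vary together across libraries. FNIP1 shares 4.26% of its transcript 31-mers with other genes, mostly AC008695.1, an overlapping gene model on the same strand. AC008695.1 has no row for DMSO and was at 0.061 with TPA by the authors' deposited table.

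Folliculin itself had values on either side of the control level. FLCN (ENSG00000154803.12, chromosome 17, 17212212 to 17237188, minus strand) had log2 fold changes of -0.099 with DMSO and 0.11 with TPA by the authors' deposited tables (unadjusted p = 0.596 and 0.546). These correspond to 93.4% and 108% of the NTC level, with implied intervals of 72.4% to 120% and 84.5% to 137%. FLCN shares 16.2% of its transcript 31-mers with other genes, mostly AC055811.2, an overlapping gene model on the same strand. AC055811.2 was at -0.060 with DMSO and -0.47 with TPA by the authors' deposited tables, and neither value passed. MPRIP overlaps FLCN on the other strand and was at -0.020 and 0.020 by the authors' deposited tables.

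Among the Rag GTPases, which carry the nutrient signal to mTORC1, RRAGA was the most precisely measured and stayed close to the control level. RRAGA, the RagA gene (ENSG00000155876.5, chromosome 9, 19049395 to 19050983, plus strand), was at 0.082 with DMSO and 0.063 with TPA on the log2 scale by the authors' deposited tables (unadjusted p = 0.467 and 0.569). Its implied intervals of 90.8% to 123% and 90.0% to 121% of the NTC level leave out a fall as deep as that of FNIP2 in DMSO. RRAGC and RRAGD encode the direct substrates of the folliculin complex. RRAGC (ENSG00000116954.7, chromosome 1, 38838198 to 38859823, minus strand) was at -0.066 with DMSO and 0.11 with TPA by the authors' deposited tables (unadjusted p = 0.722 and 0.530). Of its 31-mers 22.5% are shared with AL139260.2, an overlapping noncoding gene on the same strand, so reads could be split between them. RRAGD (ENSG00000025039.14, chromosome 6, 89364636 to 89412270, minus strand), itself a known TFEB and TFE3 target, was at -0.071 with DMSO and -0.18 with TPA by the authors' deposited tables (unadjusted p = 0.643 and 0.231). RRAGD had the lowest fold change of the members in TPA, at 88.2% of the NTC level with an implied interval of 71.9% to 108%.

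LAMTOR1 anchors Ragulator, the scaffold of the Rag proteins, in the lysosomal membrane. LAMTOR1 (ENSG00000149357.9, chromosome 11, 72085895 to 72103387, minus strand) was at -0.043 with DMSO and 0.063 with TPA by the authors' deposited tables (unadjusted p = 0.780 and 0.677). Its implied intervals ran from 78.6% to 120% and from 85.1% to 128% of the NTC level. LAMTOR1 shared none of its 31-mers with another gene. LRTOMT overlaps it on the other strand and was at 0.058 with DMSO and 0.062 with TPA by the authors' deposited tables; the strand setting of the counting is not known here.

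The transcription factors at the end of the pathway did not pass either, and they differed in precision. TFE3 (ENSG00000068323.16, chromosome X, 49028726 to 49043486, minus strand) had, after FNIP2, the lowest fold change of the 9 members in DMSO, at -0.19 by the authors' deposited table (p = 0.0853, adjusted p = 1.00), or 87.7% of the NTC level with an implied interval of 75.6% to 102%. In TPA TFE3 was at -0.095 by the authors' deposited table (unadjusted p = 0.379), or 93.6%. TFEB (ENSG00000112561.17, chromosome 6, 41683978 to 41736259, minus strand) was at -0.13 with DMSO and 0.21 with TPA by the authors' deposited tables (unadjusted p = 0.650 and 0.428). TFEB had the widest implied intervals of the members, 61.6% to 135% and 80.8% to 165% of the NTC level. A fall to 44.4% of the NTC level would have been needed for a call of TFEB in DMSO, against 73.5% for TFE3 and 72.9% for RRAGA.

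**Figure D2:**
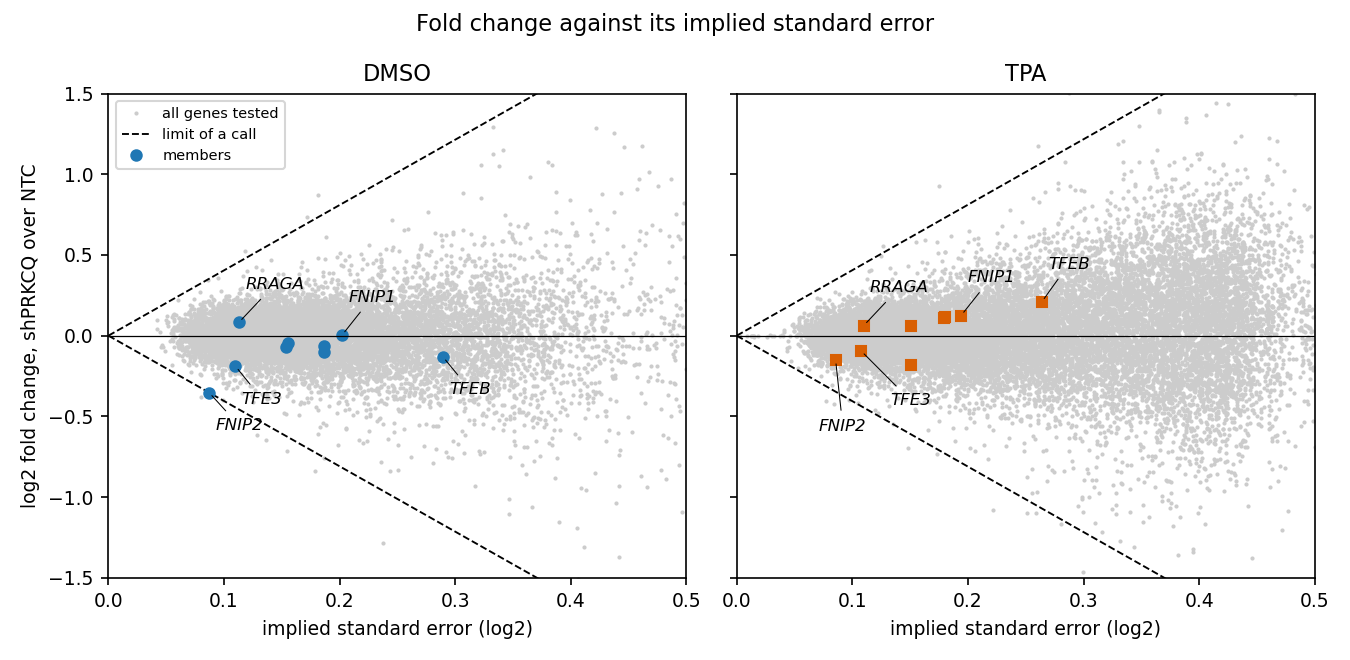
Log2 fold change of shPRKCQ over NTC (y axis) against the implied standard error (x axis) in DMSO (left) and TPA (right); grey points are all genes tested and dashed lines mark the fold change at the p-value of the last called gene, with 322 and 302 genes outside the axes. FNIP2 has the smallest implied error of the members in both panels and lies on the limit in DMSO because it is itself the last called gene there; no member reaches the limit in TPA.

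Taking the members without FNIP2, 0 of 8 passed in DMSO and 0 of 9, FNIP2 included, passed in TPA, where 0.113% of all genes did. At an unadjusted p under 0.05 the counts were also 0 of 8 and 0 of 9, against 3.04% and 3.99% of all genes. The median log2 fold change of the 8 members was -0.069 in DMSO and 0.086 in TPA, beside 0.0075 and 0.011 over all genes tested. Of the 9 members 3 were negative in both treatments (FNIP2, RRAGD and TFE3) and 2 positive in both (FNIP1 and RRAGA). The remaining 4, FLCN, RRAGC, LAMTOR1 and TFEB, were negative in DMSO and positive in TPA.

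The knockdown effect was compared between the treatments for the 8 members other than FNIP2. Each difference was divided by the combined implied error, and its p-value was adjusted over all 13007 genes by the Benjamini-Hochberg method. Of the 8 members 0 passed and 0 had an unadjusted p under 0.05. Over all genes 0 passed and 57 of 13007 had an unadjusted p under 0.05. The z of the difference had a robust SD of 0.579 over all genes, below the 1 that the test assumes. The test therefore calls few genes, and 0 of 8 does not show equal effects. TFEB had the widest gap, 0.34 on the log2 scale, with an interval of -0.43 to 1.11 (unadjusted p = 0.385). RRAGA had the narrowest, -0.019, with an interval of -0.33 to 0.29. The test takes the tables as independent and on 1 scale. For the members the implied errors in TPA were 0.912 to 0.982 times those in DMSO.

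**Figure D3:**
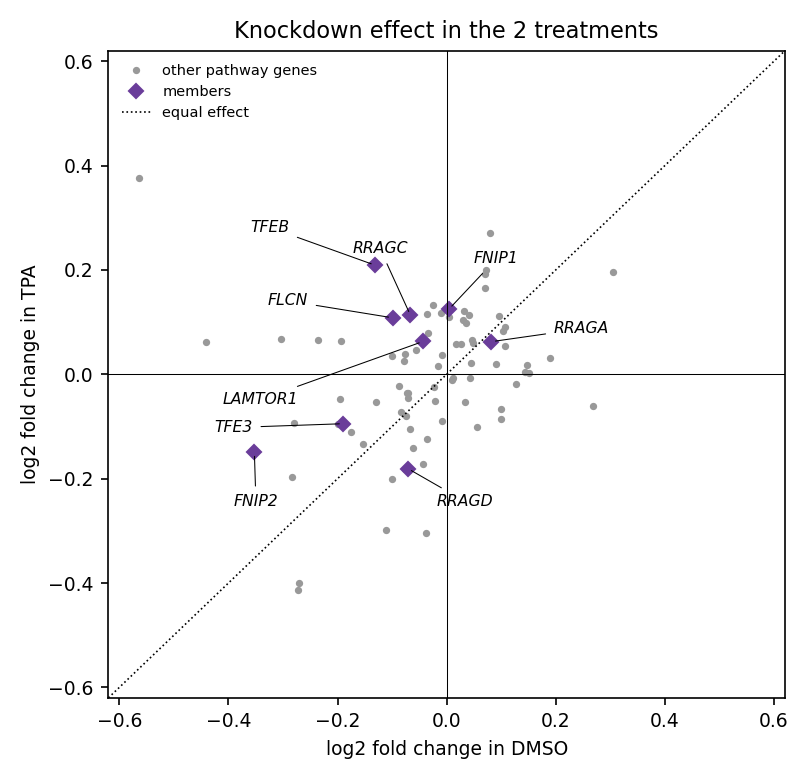
Log2 fold change of shPRKCQ over NTC in DMSO (x axis) and TPA (y axis) from the authors' deposited tables; diamonds are the 9 members, grey points the other genes of the pathway lists found in both tables, and the dotted line marks equal values. Of the members, 7 lie above the line, among them FNIP2 at -0.35 and -0.15.

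The other Rag and Ragulator genes gave no call, beside 0.108% of all genes called in DMSO and 0.113% in TPA. A short list would seldom hold a call at such shares. Nothing is therefore read from the lack of a call, here or in the lists below. SLC38A9, the arginine-sensing lysosomal transporter, and LAMTOR2 to LAMTOR5, the further Ragulator subunits, were tested in both treatments, and RRAGB, the RagB gene, in TPA. Of these, 4 of 5 were positive in DMSO with a median log2 fold change of 0.046, and 5 of 6 in TPA with a median of 0.073. They ranged from -0.034 (LAMTOR3) to 0.11 (LAMTOR5) in DMSO and from -0.0067 (LAMTOR4) to 0.16 (RRAGB) in TPA by the authors' deposited tables. LAMTOR2 was at 0.090 and 0.020 and SLC38A9 at 0.046 and 0.066 by the authors' deposited tables. All these values lay close to the control level, but their implied intervals were wider. The widest ran from -0.31 to 0.49 in DMSO (LAMTOR2) and from -0.35 to 0.68 in TPA (RRAGB).

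The MiT/TFE relatives of TFEB and TFE3 gave no call. TFEC was at -0.56 with DMSO and 0.38 with TPA by the authors' deposited tables (unadjusted p = 0.134 and 0.257). MITF, the melanocyte and mast cell factor, was at -0.18 in TPA by the authors' deposited table (unadjusted p = 0.452). RRAGB and MITF have no row in the DMSO table, nor do the T cell genes CD3E, CD2, CD5 and LCK. Why these rows are missing is not known, so nothing about the level of these genes is read from that.

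Upstream of the Rag proteins, GATOR1 switches RagA off, GATOR2 counters it, and KICSTOR holds GATOR1 on the lysosome. Of the 12 genes of these complexes 0 were called in either treatment, beside 0.108% of all genes in DMSO and 0.113% in TPA. Of the 12 genes, 8 were negative in DMSO (median -0.034) and 5 in TPA (median 0.013). SEH1L, a GATOR2 and nuclear pore subunit, had the smallest p of the list in both, at -0.27 with DMSO and -0.41 with TPA by the authors' deposited tables (unadjusted p = 0.0897 and 0.00852, adjusted p = 1.00 and 0.766). DEPDC5, a GATOR1 subunit, was at -0.15 in DMSO, and NPRL2, another, at -0.14 in TPA by the authors' deposited tables. The 6 amino acid sensors also gave no call, with medians of -0.054 and 0.074. SESN1, a leucine-sensing sestrin, was at 0.31 in DMSO and 0.20 in TPA, CASTOR1, the arginine sensor, at -0.24 in DMSO and BMT2, which senses S-adenosylmethionine, at 0.082 in TPA by the authors' deposited tables.

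Genes of mTORC1 and of its switch RHEB with the TSC complex had medians of -0.071 with DMSO and -0.046 with TPA over 9 genes, with no call. TSC2, the GTPase-activating subunit that turns RHEB off, was at -0.27 with DMSO and -0.40 with TPA by the authors' deposited tables (unadjusted p = 0.126 and 0.0195, adjusted p = 1.00 for both). MLST8, an mTOR-binding subunit, was at -0.17 in DMSO and TSC1 at 0.11 in TPA by the authors' deposited tables. SEH1L and TSC2 under TPA were the only 2 of 77 pathway genes tested outside the members with an unadjusted p under 0.05; in DMSO there were 0 of 75. The background at that limit was 3.99% of all genes in TPA and 3.04% in DMSO.

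FNIP1 and FNIP2 were first described as partners of folliculin that bind AMPK, and both are cochaperones of HSP90. The AMPK subunits had medians of -0.036 with DMSO and -0.095 with TPA over 5 genes, with no call. PRKAG2 was at -0.20 in DMSO and PRKAB2 at 0.073 with DMSO and 0.20 with TPA by the authors' deposited tables, and PRKAG1 at 0.19 in TPA by the authors' deposited table. HSP90 and its cochaperones were all positive in DMSO, 7 of 7 with a median of 0.14, and 4 of 7 were positive in TPA with a median of 0.0035. Of these 7 genes 0 were called, and 0 had an unadjusted p under 0.05, in either treatment. Over all genes 3.04% in DMSO and 3.99% in TPA had an unadjusted p under 0.05. HSP90AA1, the inducible HSP90, was at 0.27 and STIP1, the cochaperone HOP, at 0.14 in DMSO by the authors' deposited table. PPP5C was at -0.086 and HSP90AA1 at -0.061 in TPA by the authors' deposited table.

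Lysosomal and autophagy genes of the CLEAR network, the class that TFEB and TFE3 switch on, gave no call. Of 30 tested in each treatment 0 were called and 0 had an unadjusted p under 0.05. In DMSO 20 were negative, with a median of -0.037, and in TPA 16, with a median of -0.0093. Over all genes 47.7% were negative in DMSO and 47.0% in TPA. Of all genes 0.108% were called in DMSO and 0.113% in TPA, and 3.04% and 3.99% had an unadjusted p under 0.05. At such shares nothing is read from the counts of 0 of 30. NAGLU, which degrades heparan sulfate, was at -0.28 in DMSO by the authors' deposited table (unadjusted p = 0.188). VPS18, a vesicle tethering subunit, was at 0.27 and CTSA, the protective protein cathepsin A, at -0.20 in TPA by the authors' deposited table (unadjusted p = 0.155 and 0.308).

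**Figure D4:**
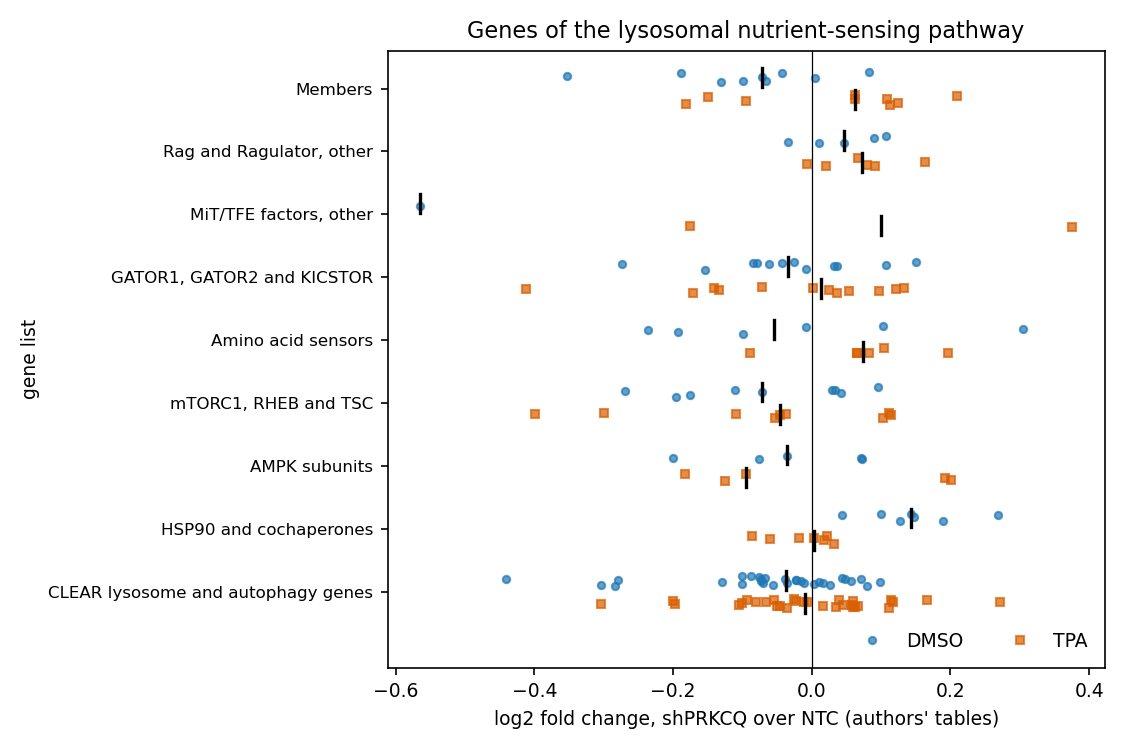
Log2 fold change of shPRKCQ over NTC (x axis) of each tested gene of the members and of 8 pathway lists, in DMSO (circles) and TPA (squares), from the authors' deposited tables; black bars are medians. The medians of lists with 5 or more genes lie between -0.095 and 0.14, and FNIP2 is the lowest circle in the row of members.

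Genes with a pair of values like that of FNIP2 were sought among the 122 others with an unadjusted p under 0.01 in DMSO, by the distance between fold changes over the 2 comparisons. The nearest 5 were STK24, AACS, PCTP, DGCR2 and PANX1, at distances of 0.041 to 0.076 on the log2 scale. STK24, a sterile-20 kinase, was at -0.32 with DMSO and -0.13 with TPA by the authors' deposited tables. AACS, acetoacetyl-CoA synthetase, was at -0.30 and -0.15 by the authors' deposited tables. None of the 5 passed at an adjusted p under 0.05 in either treatment, and only 2 values per gene enter this likeness.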

How the data were processed

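RNA of 24 libraries was sequenced; values per library are not analysed here, so depth and the precision it gives are unknown. Per the labels' protocols, libraries were stranded and poly(A)-selected. DESeq2 1.18.1, STAR 2.5.3a, RSEM 1.3.0 and GRCh38 are named in the submitters' processing notes; the role of each, the model, strand setting and shrinkage were not given in the sources used here. The authors deposited, per the file headers, log2 fold changes with their p-values and adjusted p-values. The tables do not state a direction; negative was read as lower in shPRKCQ, since PRKCQ is negative. The authors' adjusted p-values differed from a Benjamini-Hochberg adjustment by a relative 0.00451 at most. Of the genes listed, 13007 (DMSO) and 19417 (TPA) have an adjusted p; a gene was called under 0.05.

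Computed here were z from p and sign, the implied standard error (fold change over z), intervals at 95%, and the difference of effects, tested on simulated data. Shrinkage by the authors would change implied errors. The labels call replicates independent but do not say how cultures were related. Coordinates and 31-mers (sense strand) come from GENCODE release 29, promoters from RefSeq. Named were all members, all other Rag, Ragulator and MiT/TFE genes, any called gene and the 2 smallest p of each list and treatment, and the 5 genes most like FNIP2; 1 gene that this rule names is not reported here; neighbours, GTCATATGAC and T cell genes without a row were added after values were seen. Members and lists were chosen with earlier results of these data known. Comparison of the paralogs' proteins, planned, is not analysed here. pandas 2.3.3, scipy 1.17.1 and numpy 2.4.6 ran under Python 3.11.15.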

Additional observations from a re-analysis of the deposited data

How the results depend on the processing

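FNIP2 was the 1 member called in DMSO, and 0 were called at an adjusted p under 0.01 or with the adjustment made without 30 non-polyadenylated and histone genes (adjusted p = 0.0519). It stayed called at an adjusted p under 0.1, which follows from the call at 0.05. The adjustment over every gene with a p-value, or over genes in both tables, used the same 13007 genes in DMSO. Neither could therefore change the call. Rescaling p-values by the robust SD of z, 0.753 in DMSO, made them smaller, and FNIP2 stayed called. In TPA 0 members were called under all of these settings, with an adjusted p of at least 0.615 for FNIP2. The lowest adjusted p of any other member in either treatment was 0.46. The difference between treatments gave 0 calls among 8 members on fold changes, on z-values and rescaled. Over all genes the 14 calls in DMSO became 8 at 0.01, 19 at 0.1, 109 rescaled and 10 without the non-polyadenylated and histone genes. The 22 calls in TPA became 10 at 0.01, 39 at 0.1, 113 rescaled and 8 over genes in both tables. They became 20 over every gene with a p-value and stayed 22 without the non-polyadenylated and histone genes. The number of pathway lists with a negative median, 6 of 8 in DMSO and 3 of 8 in TPA, was the same with median z and with genes in both tables. No paired analysis was possible because values per library are not analysed here; other normalizations and tools and left-out replicates need such values and were not run, and what depth limits is unknown.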

Other observations

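The decamer GTCATATGAC, noticed when the start regions of FNIP1 and FNIP2 were set side by side, stood in 6 of 35116 RefSeq promoters, each of a different gene. Besides FNIP1 and FNIP2 these were LIPA, SMARCAD1, LINC00837 and LINC01087. LIPA encodes lysosomal acid lipase. In LIPA the decamer begins 190 bases before the start and in SMARCAD1 137 bases before, whereas in the FNIP genes it lies across or beside the start. LIPA stood at -0.050 with DMSO and -0.075 with TPA by the authors' deposited tables (unadjusted p = 0.640 and 0.477). SMARCAD1, a chromatin remodeller, was at -0.069 and -0.083 by the authors' deposited tables (unadjusted p = 0.507 and 0.419). The motif was chosen after the sequences were seen, as a run that FNIP1 and FNIP2 share. Both therefore hold it by construction, and no test was made.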
